A study of Rattus norvegicus with 18 samples.

Results

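The complement system was followed through 9 genes, taken by symbol from the deposited table: C1qa, C1qb and C1qc, C1r and C1s, C2, C3, Serping1 and C5ar1. All 9 were present among the 17455 genes listed, and all 9 passed the filter on low counts that left 13338 genes for testing. Polyadenylated RNA of left hippocampi was sequenced. The animals were adult male rats of the Sprague-Dawley strain, and temporal lobe epilepsy was modelled in 2 ways. In the kainic acid (KA) model, rats with implanted electrodes were injected with rising systemic amounts of kainic acid, which activates glutamate receptors, until status epilepticus set in. In the kindling (KI) model, rats with electrodes in the hippocampus were stimulated repeatedly until fully kindled. Tissue was taken 24 hours after the last seizure. The groups were KA 3 Class V (n = 3 libraries), KA sham (n = 7), KI 3 Class V (n = 4) and KI sham (n = 4). The sources used here do not explain "3 Class V" further, nor what the shams of each model received. The whole hippocampus was lysed, so the values mix all of its cell types.

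Complement is a cascade of plasma and tissue proteins that tags and clears debris, microbes and, in the brain, synapses. In the classical pathway the recognition protein C1q, built from the chains of C1qa, C1qb and C1qc, carries the proteases C1r and C1s, which cleave C4 and C2 so that C3 can be split. Fragments of C3 coat surfaces, and the C5a fragment released further down acts on cells through the receptor C5ar1, while Serping1, the C1 inhibitor, blocks C1r and C1s. In brain tissue microglia are the main source of C1q, and astrocytes and microglia can both make C3.

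Promoter sequence shows what lies next to the start of genes that moved in these data. RefSeq promoters of the rat assembly GRCr8, each running from 250 bases before to 50 bases after the start of the gene, were matched for 4 of the 9 genes (C1qa, C1qb, C1r and C3). The 3 of them called in a comparison are shown 5′ to 3′ on the minus strand, which is the coding strand of each. Capitals mark matches, on either strand, to any of 5 motifs: TTCNNNGAA, bound by STAT factors, GAAA repeated after 2 bases, bound by interferon-responsive factors, GAGGAA, the core bound by the myeloid factor PU.1, TTGCNNAA, bound by C/EBP factors, and GGG followed after 5 bases by CC, bound by NF-kB. They lie at chr9:2201290-2201589 for C3, chr5:154419884-154420183 for C1qa and chr5:154407778-154408077 for C1qb.
C3: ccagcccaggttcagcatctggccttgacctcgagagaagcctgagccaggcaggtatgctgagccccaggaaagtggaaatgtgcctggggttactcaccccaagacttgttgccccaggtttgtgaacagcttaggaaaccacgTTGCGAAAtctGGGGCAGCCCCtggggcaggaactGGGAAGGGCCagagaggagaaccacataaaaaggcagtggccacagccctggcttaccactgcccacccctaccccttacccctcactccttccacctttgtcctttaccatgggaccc
C1qa: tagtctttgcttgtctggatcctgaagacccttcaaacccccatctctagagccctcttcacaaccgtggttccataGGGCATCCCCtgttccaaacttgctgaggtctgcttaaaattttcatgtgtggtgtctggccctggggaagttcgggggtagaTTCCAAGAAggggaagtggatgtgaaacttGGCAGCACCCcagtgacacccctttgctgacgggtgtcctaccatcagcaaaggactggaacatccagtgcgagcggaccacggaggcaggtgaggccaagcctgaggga
C1qb: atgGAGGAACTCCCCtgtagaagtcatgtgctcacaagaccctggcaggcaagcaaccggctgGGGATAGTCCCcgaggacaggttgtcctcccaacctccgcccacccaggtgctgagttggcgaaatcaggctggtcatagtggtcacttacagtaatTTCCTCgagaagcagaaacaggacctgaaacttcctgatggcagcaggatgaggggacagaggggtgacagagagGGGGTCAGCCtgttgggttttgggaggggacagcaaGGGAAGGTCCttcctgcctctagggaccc

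In the C3 window TTGCNNAA matched once, as TTGCGAAA beginning at position -104 from the start, and 10.6% of all 33469 promoters in the RefSeq table hold this motif. The C1qa window held TTCCAAGAA at position -90, a match to TTCNNNGAA, which 8.87% of all promoters hold. GAGGAA, held by 27.6% of all promoters, began at -247 and, on the opposite strand, at -90 in the C1qb window, and the copy at -247 overlapped a match to the NF-kB motif. The NF-kB motif matched 3 times in C3, 2 times in C1qa and 5 times in C1qb, some of them overlapping one another, and 47.3% of all promoters hold it. The repeated GAAA motif, present in 3.92% of all promoters, was not among the letters of these windows. These matches describe sequence and are not evidence of binding.

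Total counts per library were 37172455 to 49943021 in KA 3 Class V, 32150130 to 42619628 in KA sham, 36117956 to 41195373 in KI 3 Class V and 30925368 to 38850420 in KI sham. Each of the 8 neuronal markers examined, Prox1 of granule cells and Neurod6 of pyramidal cells among them, had counts in all libraries. Some libraries stood apart within their group. Spp1, osteopontin of activated microglia and macrophages, was highest in KI sham 3 and 4, at 373 and 248.9 CPM (counts scaled to a fixed library size with the normalization factor), against 3.46 to 116 CPM in the other 16 libraries. Ttr, a choroid plexus gene, was at most 63.8 CPM except in KI sham 4 (887 CPM) and KA sham 3 (572 CPM). Rn5-8s and a pair of unidentified genes that vary with it took 9.66% of counts in KA sham 4, 16.3% in KI 3 Class V 1 and 16.4% in KI sham 2, while no other library gave them more than 2%.

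In the KA model C3 and Serping1 rose, each by more than 3-fold, and the other 7 genes had higher means that did not pass the test. In the KI model the direction was the opposite: C1qa, C1qb, C1qc, C2 and C5ar1 fell to between 0.298 and 0.390 of their KI sham level, and C1r, C1s, C3 and Serping1 had lower means that did not pass. Over all 13338 genes tested, 0.172% were called higher in KA 3 Class V and 5.25% were called lower in KI 3 Class V (edgeR quasi-likelihood test, Benjamini-Hochberg adjusted p under 0.05, two-sided, as throughout). Against these shares stood 2 of the 9 complement genes in KA and 5 of the 9 in KI. The median log2 fold change of the 9 was 0.77 in KA and -1.36 in KI, beside -0.01 and -0.04 over all genes tested. All 9 had a positive fold change in KA and a negative one in KI, but in KI C1s turned to 0.053 without KI sham 3, and without KI sham 3 and 4 C1r was at 0.19 and C1s at 0.22. DESeq2 called 3 of the 9 higher in KA (1.36% of all genes it tested) and 6 lower in KI (10.1%), and limma-voom called 4 higher in KA (3.57%) and 6 lower in KI (28%). In bulk tissue, fewer cells of a type and less RNA per cell cannot be told apart.

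**Figure D1:**
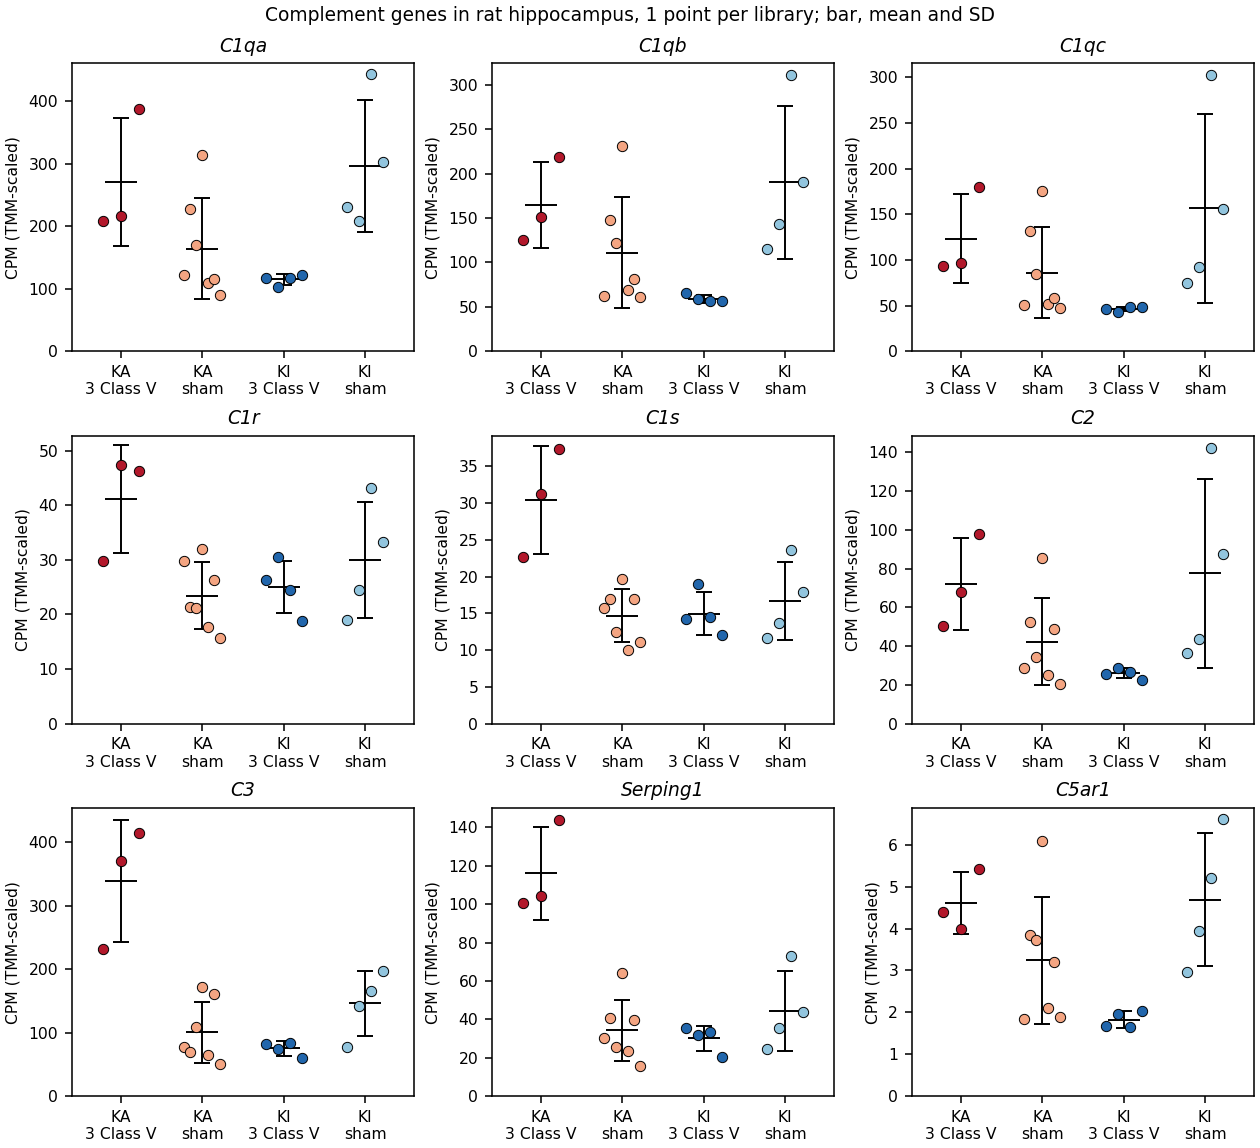
Level of each complement gene in CPM (y axis, from 0) by group (x axis), with 1 point per library and a bar for the mean and SD (n = 3, 7, 4 and 4). C3 and Serping1 in the 3 KA 3 Class V libraries lie above every other library, and the 4 KI 3 Class V libraries form tight, low clusters for C1qa, C1qb, C1qc, C2 and C5ar1.

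The 3 C1q chains, which assemble into the recognition unit of the classical pathway, did not pass in KA and fell in KI. C1qa had 208, 217 and 388 CPM in KA 3 Class V, against 90.4 to 313 CPM with a median of 122 CPM in KA sham. In KI 3 Class V it stood at 117, 102, 118 and 122 CPM, against 231, 209, 443 and 303 CPM in KI sham. The KA groups overlapped, and every KI 3 Class V library was below every KI sham. The log2 change of C1qa was 0.72 ± 0.33 in KA (SE, edgeR adjusted p = 0.458) and -1.37 ± 0.35 in KI (edgeR adjusted p = 0.0331).

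C1qb stood at 125, 152 and 219 CPM in KA 3 Class V, against 60.9 to 231 CPM with a median of 81.9 CPM in KA sham. It stood at 65.5, 59.1, 56.0 and 56.2 CPM in KI 3 Class V, against 115, 143, 311 and 191 CPM in KI sham. Again the KA groups overlapped and the KI groups did not. C1qb changed by 0.57 ± 0.37 in KA, which did not pass (edgeR adjusted p = 0.631), and fell by 1.68 ± 0.39 on the log2 scale in KI (SE, edgeR adjusted p = 0.0284).

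C1qc, the remaining chain, stood at 93.8, 97.0 and 179.5 CPM in KA 3 Class V, against 47.4 to 176 CPM with a median of 58.0 CPM in KA sham. In KI 3 Class V it stood at 46.1, 43.4, 48.1 and 48.7 CPM, against 74.6, 92.6, 302 and 156 CPM in KI sham. Overlap was the same as for the other chains. The log2 change was 0.53 ± 0.43 in KA (SE, edgeR adjusted p = 0.715) and -1.75 ± 0.46 in KI (edgeR adjusted p = 0.0346).

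The chains moved together from library to library. The ratio of C1qb to C1qa stayed between 0.459 and 0.739 in all 18 libraries, and that of C1qc to C1qa between 0.323 and 0.682 (ratios of CPM, with no correction for gene length). C1qb correlated with C1qc at r = 0.980 and C1qa with C1qb at r = 0.966 over the 18 libraries, which share library depth and tissue makeup. The 3 genes lie next to each other in the RefSeq gene order, as C1qb, C1qc and C1qa on chromosome 5.

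C1r and C1s, the proteases that C1q carries, had higher means in KA and lower ones in KI, none of which passed. C1r stood at 29.7, 47.3 and 46.3 CPM in KA 3 Class V, against 15.8 to 32 CPM with a median of 21.3 CPM in KA sham. It stood at 26.3, 30.6, 24.4 and 18.9 CPM in KI 3 Class V, against 18.9, 24.4, 43.1 and 33.2 CPM in KI sham. C1r overlapped between groups in both models. The log2 change was 0.81 ± 0.24 in KA (SE, edgeR adjusted p = 0.182) and -0.26 ± 0.26 in KI (edgeR adjusted p = 0.470).

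C1s stood at 22.7, 31.2 and 37.3 CPM in KA 3 Class V, against 9.97 to 19.7 CPM with a median of 15.7 CPM in KA sham. Its KI values were 14.2, 19, 14.5 and 12.1 CPM in KI 3 Class V, against 11.6, 13.7, 23.6 and 17.9 CPM in KI sham. Every KA 3 Class V library was above every KA sham, although the test was not passed, and the KI groups overlapped. The log2 change of C1s was 1.05 ± 0.23 in KA (SE, edgeR adjusted p = 0.0684) and -0.16 ± 0.24 in KI (edgeR adjusted p = 0.643). C1s was called in KA when KA 3 Class V 1 (1.22, adjusted p = 0.0436), KA sham 4 (1.13, adjusted p = 0.0364), KI sham 1 (adjusted p = 0.0314) or KI sham 3 (adjusted p = 0.0450) was left out of the edgeR fit. C1r and C1s correlated at r = 0.927 over the 18 libraries and adjoin each other on chromosome 4.

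C2, the substrate of C1s that forms part of the C3 convertase, did not pass in KA and fell in KI. It stood at 50.5, 68.2 and 97.8 CPM in KA 3 Class V, against 20.7 to 85.6 CPM with a median of 34.2 CPM in KA sham. In KI 3 Class V it stood at 25.7, 29.0, 26.9 and 22.6 CPM, against 36.4, 43.5, 143 and 87.7 CPM in KI sham. The KA groups overlapped and the KI groups did not. The log2 change was 0.77 ± 0.40 in KA (SE, edgeR adjusted p = 0.557) and -1.57 ± 0.44 in KI (edgeR adjusted p = 0.0383). In the RefSeq list C2 overlaps Zbtb12, which is also in the table, and how reads in the overlap were counted is not given in the sources used here.

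C3, the component on which all activation routes converge, rose in KA. It stood at 232, 370.3 and 414 CPM in KA 3 Class V, against 50.7 to 172 CPM with a median of 76.9 CPM in KA sham. Its KI values were 82.6, 73.8, 84.2 and 59.5 CPM in KI 3 Class V, against 77.7, 143, 166 and 198 CPM in KI sham. No KA 3 Class V library overlapped the KA shams, while KI sham 1 lay within the KI 3 Class V range. C3 changed by 1.75 ± 0.33 in log2 in KA (SE, edgeR adjusted p = 0.0312), a fold of 3.37. In KI the change was -0.96 ± 0.36, which did not pass (edgeR adjusted p = 0.0769).

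Serping1, the inhibitor of C1r and C1s, rose in KA by nearly the same amount as C3. It stood at 100.4, 104 and 144 CPM in KA 3 Class V, against 15.8 to 64.0 CPM with a median of 30.5 CPM in KA sham. In KI 3 Class V it stood at 35.3, 31.6, 33.2 and 20.5 CPM, against 24.8, 35.7, 73.2 and 43.9 CPM in KI sham. The KA groups were apart and the KI groups overlapped. The log2 change was 1.76 ± 0.33 in KA (SE, edgeR adjusted p = 0.0312), a fold of 3.39, and -0.56 ± 0.36 in KI (edgeR adjusted p = 0.260).

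The inhibitor also stood higher relative to its targets in KA. The ratio of Serping1 to the sum of C1r and C1s was 1.65 ± 0.301 in KA 3 Class V (SD, n = 3) and 0.870 ± 0.224 in KA sham (SD, n = 7), and the ranges of 1.32 to 1.92 and 0.590 to 1.24 did not overlap. It was 0.756 ± 0.124 in KI 3 Class V and 0.926 ± 0.125 in KI sham (SD, n = 4 each), with overlapping ranges. These ratios of CPM were described and not tested.

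C5ar1, the receptor for C5a on myeloid cells, did not pass in KA and fell in KI. Its level was low, at 4.40, 4 and 5.43 CPM in KA 3 Class V, against 1.85 to 6.10 CPM with a median of 3.19 CPM in KA sham. It stood at 1.67, 1.95, 1.66 and 2.03 CPM in KI 3 Class V, against 2.97, 3.95, 5.21 and 6.63 CPM in KI sham. The KA groups overlapped and the KI groups did not. The log2 change was 0.51 ± 0.31 in KA (SE, edgeR adjusted p = 0.6249) and -1.36 ± 0.34 in KI (edgeR adjusted p = 0.0321).

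Groups that do not overlap were counted in the same way for all genes. Of the 9, C1s, C3 and Serping1 lay wholly above KA sham in KA 3 Class V, as did 2.95% of all genes tested, and C1qa, C1qb, C1qc, C2 and C5ar1 lay wholly below KI sham in KI 3 Class V, as did 8.07% of all genes tested. Within KI 3 Class V the 9 genes varied little, with coefficients of variation of 5.11% to 22.01%, against 31.8% to 66.0% in KI sham. In KA the coefficients were 15.99% to 39.4% in KA 3 Class V and 24.4% to 58.1% in KA sham.

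The difference between the models was tested directly, by subtracting the KI change from the KA change, and 7 of the 9 genes passed, all in the positive direction, beside 3.15% of all genes tested. The 2 models have separate shams and share no library. In log2 the difference was 2.09 ± 0.48 for C1qa, 2.26 ± 0.53 for C1qb, 2.27 ± 0.62 for C1qc and 2.35 ± 0.59 for C2 (SE, edgeR adjusted p from 0.0239 to 0.0473). It was 2.71 ± 0.49 for C3, 2.32 ± 0.49 for Serping1 and 1.87 ± 0.46 for C5ar1 (SE, edgeR adjusted p = 0.0135, 0.0190 and 0.0323). The proteases did not pass, at 1.07 ± 0.36 for C1r (95% interval 0.32 to 1.82, edgeR adjusted p = 0.104) and 1.21 ± 0.34 for C1s (95% interval 0.51 to 1.92, edgeR adjusted p = 0.0521). DESeq2 and limma-voom called 9 of 9 higher, beside 5.63% and 16.8% of all genes. The median of the 9 differences was 2.26, beside 0.01 over all genes tested.

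**Figure D2:**
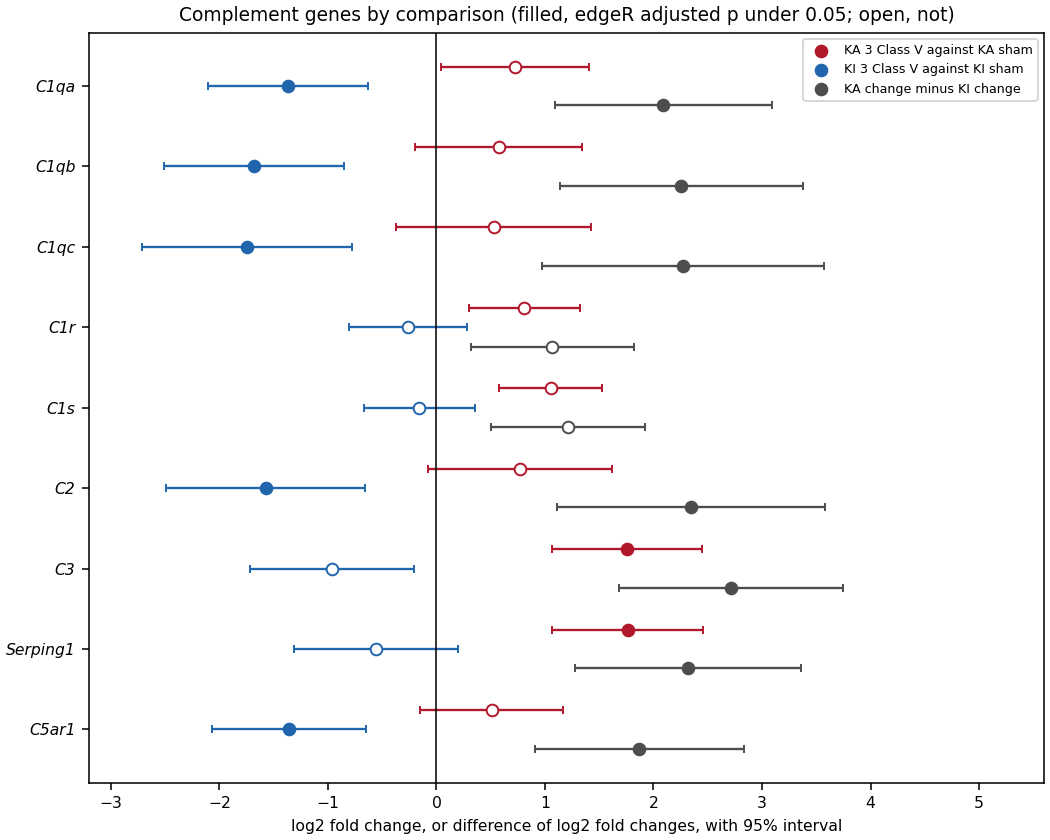
Log2 fold change of each complement gene (x axis) with its 95% interval from edgeR, for KA 3 Class V against KA sham, KI 3 Class V against KI sham, and the KA change minus the KI change; filled points passed an adjusted p of 0.05. In KA the filled points are C3 and Serping1, in KI they are C1qa, C1qb, C1qc, C2 and C5ar1, and in the difference C1r and C1s are the open ones.

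How far single libraries carried these calls was measured by refitting without each of the 18 in turn. In KA the call for C3 ended without KA sham 2, 3, 5 or 7 (edgeR adjusted p from 0.0506 to 0.0728), without KI 3 Class V 2, KI 3 Class V 3 or KI sham 2 (at most 0.0509), and without KA 3 Class V 2 or KA 3 Class V 3 (0.102 and 0.3004). That for Serping1 ended without KA sham 3, 5, 6 or 7 (0.0584 to 0.0894), KI 3 Class V 2 or KI 3 Class V 3 (0.0553 and 0.0580), and KA 3 Class V 2 or KA 3 Class V 3 (0.0772 and 0.323). The log2 changes in these refits stayed at 1.57 to 1.96 for C3 and 1.57 to 1.99 for Serping1 over all 18. In KI none of the 5 calls held without KI 3 Class V 1, 2 or 3 or KI sham 3, and those for C1qa, C1qc and C2 also ended without KI 3 Class V 4. Calls over all genes in KI fell as well, from 632 higher and 700 lower with all libraries. They were 1 and 8 without KI 3 Class V 1, 2 or 3, 49 and 84 without KI sham 3, and 260 and 267 without KI 3 Class V 4. These losses are therefore not particular to the complement genes. Without KI sham 3 the log2 changes were -1.11 for C1qa, -1.34 for C1qb, -1.21 for C1qc, -1.10 for C2 and -1.31 for C5ar1 (edgeR adjusted p from 0.0691 to 0.104). Without KI sham 3 and 4 together they were -0.96, -1.15, -0.86, -0.64 and -0.94 in the same order, and none was called (edgeR adjusted p from 0.0566 to 0.261). In that fit 1956 of 13381 genes were called higher in KI and 1784 lower.

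**Figure D3:**
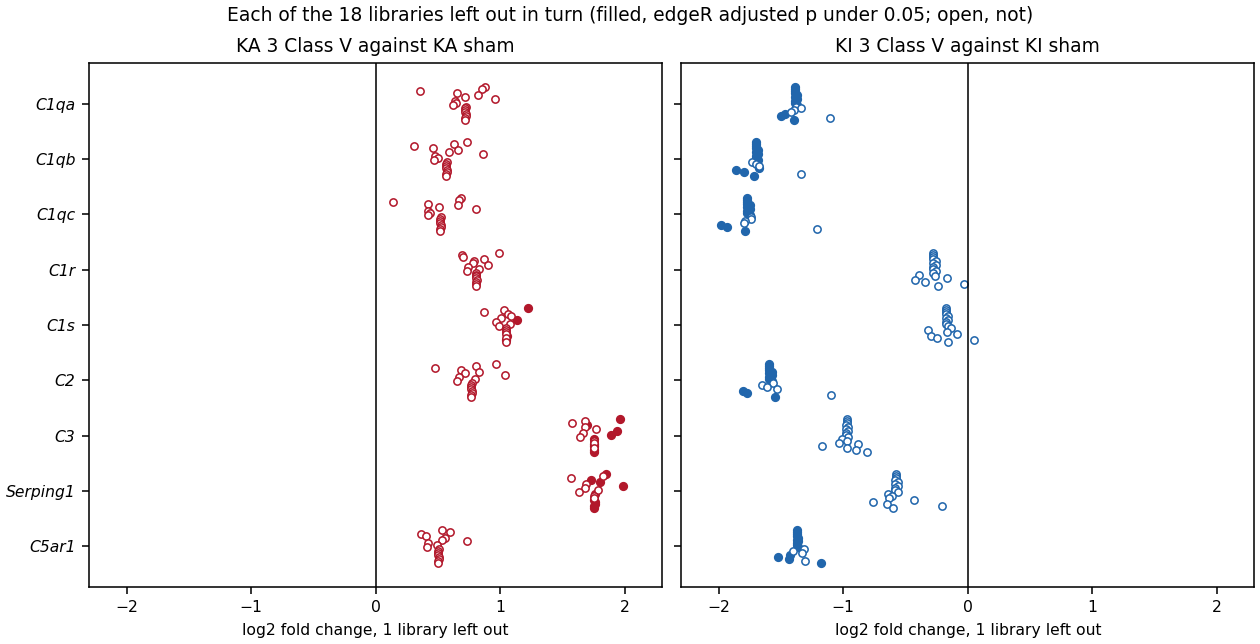
Log2 fold change of each complement gene (x axis) in 18 refits that each leave out 1 library, for KA 3 Class V against KA sham (left) and KI 3 Class V against KI sham (right); filled points passed an edgeR adjusted p of 0.05. C3 and Serping1 stay at 1.57 or above in KA, and in KI the 5 genes called with all libraries keep negative values, the weakest for C1qa, C1qb, C1qc and C2 being without KI sham 3.

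For the difference between the models, C3 was called in all 18 refits that left out 1 library (edgeR adjusted p from 0.00263 to 0.0472). Serping1 lost its call only without KA 3 Class V 3 (2.15, adjusted p = 0.0695). C1qa lost it without KA 3 Class V 3, KI 3 Class V 1, 2 or 3, or KI sham 3 (edgeR adjusted p from 0.0563 to 0.0994). C1qb and C5ar1 lost it without those 5 libraries and also KA 3 Class V 2 and KI 3 Class V 4 (edgeR adjusted p from 0.0535 to 0.103). C2 lost it in 11 refits, which left out KA sham 1, 3, 5 or 6, KA 3 Class V 2 or 3, any KI 3 Class V library or KI sham 3, with edgeR adjusted p up to 0.129. For C1qc the call held without KA sham 2, KA sham 4, KI sham 1 or KI sham 2, and ended without any other single library, with edgeR adjusted p up to 0.180. In the opposite direction, C1r was called without KI sham 1 (1.23, edgeR adjusted p = 0.0369), and C1s without KA 3 Class V 1, KA sham 2, KA sham 4 or KI sham 1 (edgeR adjusted p from 0.0194 to 0.0426). Over all genes the difference was called positive for 420 with all libraries and for 52 without KA 3 Class V 3. Without KI 3 Class V 1, 2 or 3 this count was 119, 173 and 121, and without KI sham 1 it was 708.

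The shams of the models were compared as well. All 9 genes were lower in KA sham than in KI sham, with log2 changes from -0.88 for C2 to -0.19 for C1s and a median of -0.54, but 0 of 9 passed (edgeR adjusted p from 0.564 to 0.759). The direction turned for C1s without KI sham 3 (0.025), and without KI sham 3 and 4 together for C1qc (0.018), C1r (0.094), C1s (0.19), C2 (0.063) and Serping1 (0.16). At an unadjusted edgeR p under 0.05, C1qa, C1qb, C1qc and C2 were lower (4 of 9, beside 4.58% of all genes tested), and DESeq2 and limma-voom called 0 of 9 at an adjusted p under 0.05. Over all genes 0.0075% were called lower in KA sham. All 9 overlapped between the shams, which hold 7 and 4 libraries. Every KI 3 Class V range overlapped the KA sham range, for all 9 genes.

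By group mean, C1qa, C1qb, C1qc, C2 and C5ar1 shared 1 order: KI sham highest, then KA 3 Class V, KA sham and KI 3 Class V. C1r and C1s ran from KA 3 Class V through KI sham and KI 3 Class V to KA sham, and C3 and Serping1 from KA 3 Class V through KI sham and KA sham to KI 3 Class V. Groups next to each other in these orders overlapped, except that KA 3 Class V lay wholly above KI sham for C3 and Serping1. For C3 the lowest KA 3 Class V library was at 232 CPM and the highest KI sham at 198 CPM, and for Serping1 these were 100.4 and 73.2 CPM.

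Single libraries held much of the spread. KA 3 Class V 3 was among the 3 highest of the 18 libraries for 9 of the 9 genes. KI sham 3 was for 6, and KA 3 Class V 2 and KA sham 4 were for 4 each. Among the 3 lowest, KA sham 7 stood for 7 of the genes, KA sham 5 for 6 and KI 3 Class V 4 for 5.

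**Figure D4:**
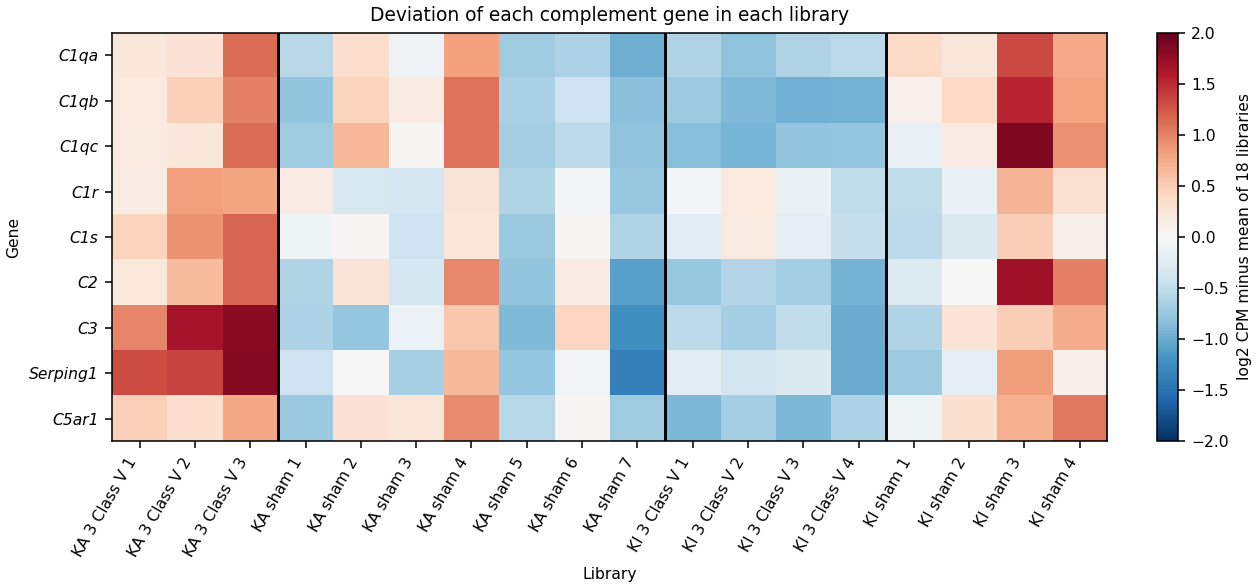
Deviation of each complement gene (rows) from its mean over the 18 libraries, in log2 CPM, by library (columns, with lines between groups). The KA 3 Class V block is red throughout, the KI 3 Class V block is mostly blue for the C1q chains, C2, C3 and C5ar1, and KI sham 3 is the darkest column for C1qa, C1qb, C1qc and C2.

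Markers of microglia, the main source of C1q, were examined beside these genes. The summed level of 11 microglia markers was 901 to 1161 CPM in KA 3 Class V, against 501 to 975 CPM in KA sham, and 481 to 518 CPM in KI 3 Class V, against 514 to 947 CPM in KI sham. These sums overlapped between the groups of each model. In KA 0 of 11 passed, beside 0.172% of all genes called higher, and 9 were positive with a median log2 change of 0.33. In KI 3 of 11 fell, Tmem119 and Aif1 among them, beside 5.25% of all genes called lower. There 11 of 11 were negative, with a median of -0.65. Relative to the mean log2 CPM of the 11 markers, C3 in KA 3 Class V was at 2.32 to 3.07 and in KA sham at 0.74 to 2.20, and Serping1 was at 1.02 to 1.54 and -0.94 to 0.28, so the groups did not overlap after this subtraction. In KI 3 Class V, C1qa, C1qb, C1qc and C5ar1 were also below every KI sham on this scale, whereas C2 overlapped. For C1qb the ranges were 0.93 to 1.28 against 1.64 to 2.66. For C1qa they nearly touched, at 1.82 to 2.18 in KI 3 Class V against 2.19 to 3.22 in KI sham. These values share the marker mean and were not tested, and the share of all genes that lie apart on this scale was not counted.

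Markers of other cell types were summed in the same way. In KI the 6 oligodendrocyte markers summed to 9514 to 13436 CPM in KI 3 Class V, against 15305 to 20480 CPM in KI sham, and the 8 neuronal markers to 3768 to 4919 CPM in KI 3 Class V, against 2846 to 3496 CPM in KI sham, so neither overlapped. In KA both overlapped, with oligodendrocyte sums of 13177 to 13487 CPM in KA 3 Class V, against 12001 to 34334 CPM in KA sham, and neuronal sums of 3130 to 3305 CPM in KA 3 Class V, against 2285 to 4890 CPM in KA sham. The summed level of 8 astrocyte markers was 12834 to 14743 CPM in KA 3 Class V, against 5982 to 12155 CPM in KA sham, and 7580 to 9186 CPM in KI 3 Class V, against 6224 to 10066 CPM in KI sham. Single astrocyte markers were mixed in both models, with 5 positive and 3 negative in each. The median log2 change was 0.14 in KA and 0.14 in KI. In KA 1 was called higher, beside 0.172% of all genes, and in KI 1, beside 4.74%. Border macrophage and monocyte markers summed to 112 to 211 CPM in KA 3 Class V, against 52.9 to 243 CPM in KA sham, and 59.9 to 72.4 CPM in KI 3 Class V, against 83.6 to 262 CPM in KI sham. Choroid plexus markers summed to 10.9 to 34.1 CPM in KA 3 Class V, against 16.4 to 617 CPM in KA sham, and to 9.89 to 30.3 CPM in KI 3 Class V, against 16.1 to 975 CPM in KI sham. Sums of endothelial, meningeal and blood cell markers overlapped between the groups of each model. Except for those of blood cells, no marker in these lists was at 0 in any library. The part of these markers in the complement values was not tested.

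The rest of the complement system was followed through 43 listed symbols, 35 of them found in the table, with 26 above the count filter. For the 9 below it, the highest library held 0.0758 to 0.315 CPM. In KA 0 of 26 were called, beside 0.172% of all genes called higher and 0% called lower, and 19 were positive with a median log2 change of 0.29. At an unadjusted p the smallest were Itgb2 (1.77 ± 0.38, edgeR adjusted p = 0.0659) and Itgam (1.61 ± 0.37, edgeR adjusted p = 0.0842), the chains of complement receptor CR3, which binds fragments of C3. Both were called without KA sham 4 or without KI sham 1, with edgeR adjusted p from 0.00936 to 0.0437.

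In KI 5 of the 26 were called, 4 lower beside 5.25% of all genes and 1 higher beside 4.74%. Properdin, Cfp, which stabilizes the alternative pathway convertase, fell to 5.92 ± 0.496 CPM in KI 3 Class V, against 11.6 ± 1.83 CPM in KI sham (SD, n = 4 each). Cfd, the protease that starts that pathway, fell to 2.62 ± 0.6249 CPM in KI 3 Class V, against 6.41 ± 3.43 CPM in KI sham. The ficolins, lectins that start the lectin pathway, fell likewise, with Fcna at 2.06 ± 0.412 CPM in KI 3 Class V and 4.51 ± 0.713 CPM in KI sham. Fcnb stood at 0.270 ± 0.0755 CPM in KI 3 Class V and 3.34 ± 3.67 CPM in KI sham, where the SD exceeded the mean and KI sham 3 and 4 held 8.31 and 3.89 CPM. Its KI groups overlapped, with KI sham 1 at 0.242 CPM inside the KI 3 Class V range of 0.189 to 0.351 CPM. Csmd1, a membrane inhibitor of the classical pathway in neurons, rose to 58.1 ± 5.31 CPM in KI 3 Class V, against 22.4 ± 12.2 CPM in KI sham. The summed 8 neuronal markers averaged 4484 ± 546 CPM in KI 3 Class V and 3242 ± 289 CPM in KI sham (SD, n = 4 each). Snap25, Syt1 and Nefl lay above every KI sham in every KI 3 Class V library, whereas Rbfox3, Tubb3, Prox1, Neurod6 and Grin1 overlapped. The share of all genes that lie wholly above KI sham is not given here, so this separation cannot be set against other genes. All 8 had positive log2 changes, with a median of 0.43, and 1 was called higher, beside 4.74% of all genes. The part of these markers in the value of Csmd1 was not tested. The log2 changes were -0.97 ± 0.22 for Cfp, -1.29 ± 0.33 for Cfd, -1.13 ± 0.27 for Fcna, -3.63 ± 0.97 for Fcnb and 1.38 ± 0.35 for Csmd1 (SE, edgeR adjusted p from 0.0270 to 0.0358). None of these 5 held without KI 3 Class V 1, 2 or 3 or KI sham 3, and Cfd, Fcna and Fcnb also ended without KI 3 Class V 4 and Csmd1 without KI sham 1 or 2 (edgeR adjusted p from 0.0513 to 0.106). Over all genes only 1 was called higher and 8 lower without KI 3 Class V 1, 2 or 3, and 49 and 84 without KI sham 3. Without KI sham 3 the change was -2.65 for Fcnb and -0.87 for Cfd. The weakest value over all alternatives was -1.14 for Fcnb and -0.63 for Cfd.

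The difference between the models was called for 5 of the 26, all positive, beside 3.15% of all genes. Among them were Itgb2 (2.97 ± 0.57), Itgam (2.72 ± 0.55), Cfd (2.02 ± 0.44) and Fcna (1.86 ± 0.36), with edgeR adjusted p from 0.0148 to 0.0216 (SE). Itgb2 stood at 69.2, 109.8 and 70.5 CPM in KA 3 Class V and at 83.2 ± 23.1 CPM on average, against 24.3 ± 11 CPM in KA sham, and at 16.3 ± 1.53 CPM in KI 3 Class V, against 37.2 ± 20.2 CPM in KI sham. Itgb2 held in all 18 refits without 1 library (edgeR adjusted p up to 0.0467). Fcna ended without KA 3 Class V 3 (0.0599), Itgam without KA 3 Class V 2 or KA 3 Class V 3 (0.0502 and 0.0509), and Cfd without KI 3 Class V 1 or 2 (0.0533 and 0.0513) or KA 3 Class V 2 or 3 (0.0502 and 0.0857). Between the shams 0 of 26 were called, with C6 of the membrane attack complex lowest at -2.04 ± 0.60 (edgeR adjusted p = 0.564). C6 was at 1.23 and 1.40 CPM in KI sham 3 and 4, and at most 0.319 CPM in the other shams of both models. The alternative that weakened this change most put it at -0.11.

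**Figure D5:**
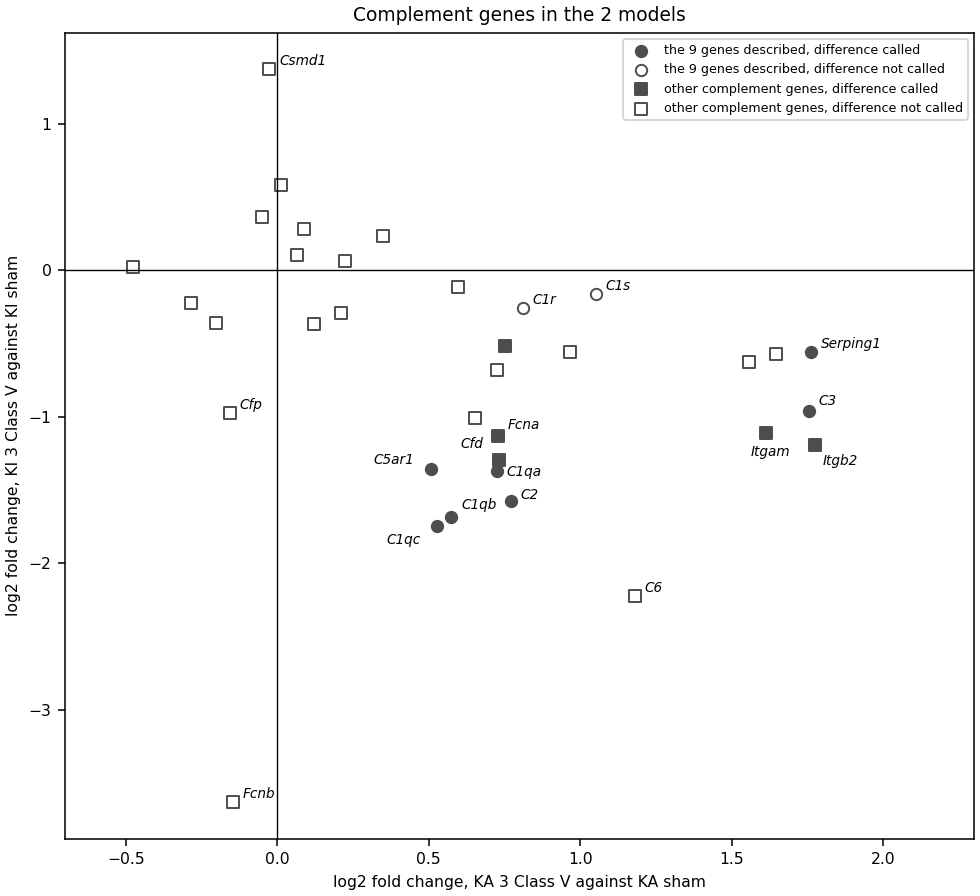
Log2 fold change in KA 3 Class V against KA sham (x axis) and in KI 3 Class V against KI sham (y axis) for the 9 complement genes (circles) and 26 other complement genes (squares); filled symbols passed the edgeR test of the difference between the models. All 9 circles lie in the field that is positive in KA and negative in KI, with Serping1 and C3 farthest right and C1qc lowest.

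C4 could not be read as separate genes. C4a and C4b, named here after their values were seen, are near-identical copies, and their ratio, C4b over C4a, was 0.232 ± 0.0126 over the 18 libraries (SD), so the division of reads between them is uncertain. C4b stood at 31.5, 40.4 and 49.2 CPM in KA 3 Class V, against 5.17 to 19.8 CPM in KA sham, and neither copy was called in KA (edgeR adjusted p = 0.109 for C4a and 0.132 for C4b). Without KI sham 1 both were called (edgeR adjusted p = 0.0308 and 0.0396).

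The genes most like each complement gene over the 18 libraries were found by Pearson correlation of log2 CPM, among genes outside the complement lists. C1qb was closest to Ifi30, Fcer1g and Spi1, which encodes PU.1, at r = 0.987, 0.981 and 0.979. Among the genes closest to C1qc were Clec4a1 and Cxcl16, at r = 0.963 and 0.961, and C1qa was closest to RT1-A2, Ctsz and Hcls1, at r = 0.951, 0.945 and 0.941. C2 was closest to RT1-CE15 (r = 0.959), P2ry6 (0.958) and Fyb1 (0.956), and C5ar1 to Bin2 (0.964), Cmtm3 (0.963) and Unc93b1 (0.962). RT1 genes are close paralogs whose shared reads could have been split.

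A second set of neighbours went with C1r, C1s and Serping1. Icam1 was among the 3 closest for all of these, at r = 0.945, 0.916 and 0.919, and Aspg was closest to C1s and to Serping1, at r = 0.934 and 0.943. Serping1 was also close to Cd74 (r = 0.922), C1s to Scn7a (r = 0.932), and C1r to Cp (r = 0.909) and Sh3bp1 (r = 0.903). C3 was closest to Csf1r, Mmp19 and Naaa, at r = 0.934, 0.928 and 0.926. Among the complement genes themselves, Serping1 correlated with C1s at r = 0.941 and with C3 at r = 0.912, and the lowest value of any pair was 0.555, for C1r with C5ar1. All of these correlations share libraries, depth and tissue makeup, and they are given as descriptions.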

How the data were processed

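RNA-seq counts of 18 hippocampal libraries were used, matched to samples by the library names in the labels, with 0 columns left over. The authors deposited raw counts of reads per gene symbol. Per the submitters' processing notes the tools were HISAT2, featureCounts, DESeq2, FastQC and Trimmomatic, and the genome build was rn6. Tool versions, the annotation, the strand setting and the handling of multiply mapped reads: not given in the sources used here.

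The 9 members and all lists were chosen with earlier results of these data known. Tests used edgeR 4.0.16 in R 4.3.3 with TMM factors, filterByExpr (13338 of 17455 genes kept), group means over all 18 libraries (14 residual degrees of freedom) and the robust quasi-likelihood F test, two-sided. P-values were adjusted by Benjamini-Hochberg across the tested genes, with 0.05 as the threshold. Standard errors were derived from the F statistic and the log2 fold change. Log2 CPM used a prior count of 2. The procedure was tested on simulated data. Alternatives were DESeq2 1.42.0, limma-voom (limma 3.58.1) with quality weights, upper quartile or RLE factors, other filters, each model fitted alone, a replicate block and libraries left out.

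Beyond the 9, complement genes were named when called in any comparison or among the 2 smallest p-values of one; the 3 most correlated genes were named for each member. Some genes that these rules name are not reported here. Whether each library came from its own animal is not stated in the labels, and where some did not, p-values measure a partly technical spread. Within groups, chi-square per degree of freedom was 20.4 to 602.6 for the 36 library pairs, above counting error. The depth given for each library sets the counting precision. RefSeq GRCr8 was used for names, gene order and promoters, and 15501 symbols matched it.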

Additional observations from a re-analysis of the deposited data

Results flagged for a closer look

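The change in KA differed from the change in KI, by a direct test of the difference, for 11 complement genes named here, each higher in KA relative to KI. Of the 9 complement genes 7 were called and of the other 26 tested 5, beside 3.15% of all genes tested. In log2 units the difference was 2.71 for C3, 2.35 for C2, 2.32 for Serping1, 2.27 for C1qc, 2.26 for C1qb, 2.09 for C1qa and 1.87 for C5ar1. With 1 library left out, C1qc stayed called in only 4 of 18 refits and C2 in 7 of 18. Among the other complement genes it was 2.97 for Itgb2, 2.72 for Itgam, 2.02 for Cfd and 1.86 for Fcna. Dixon's test was applied to KA sham, KI 3 Class V and KI sham, in 27 gene and group combinations, and no library stood out from its group. By chance about 1 of 20 groups fails that test. KA 3 Class V, with n = 3 libraries, was not examined. With n = 4, as in each KI group, the test can flag only a very distant library.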

How the results depend on the processing

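Calls were more sensitive to the choice of libraries and tool than directions were. For the 9 complement genes over the 4 comparisons, 842 of 990 values under alternatives kept their direction and side of the threshold, 118 lost a call, 21 gained one and 9 changed sign. With the 9 complement genes counted as called, leaving out 1 library gave 0 to 3 in KA (2 with all libraries), 0 to 5 in KI (5), 1 to 9 for the difference between models (7) and 0 between the shams. For the other 26 complement genes the same ranges were 0 to 5 in KA (0), 0 to 9 in KI (5), 1 to 12 for the difference (5) and 0 between the shams. Calls over all genes moved too. In KI they ran from 1 higher and 8 lower without KI 3 Class V 1, 2 or 3 to 1947 and 2350 without KI sham 4. In KA they ran from 9 and 0 without KA 3 Class V 3 to 93 and 17 without KI sham 1. For the difference, those last refits gave 52 and 4, and 708 and 189.

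In KA, 0 of the 9 were called with each model fitted alone and 4 by limma-voom (3 by DESeq2), and of the other genes 3 without KI sham 3 and 4, 8 by limma-voom and 5 by DESeq2. Over all genes in KA, 17 of 13196 were called higher and 0 lower with each model fitted alone. Without KI sham 3 and 4 these were 62 and 7 of 13381, by limma-voom 476 and 249 of 13338, and by DESeq2 187 and 68 of 13762. In KI, 0 of the 9 were called without KI sham 3 and 4, where 1956 of 13381 genes were called higher and 1784 lower. Without the 3 libraries with high Rn5-8s-like counts 0 of the 9 were called as well. In that fit only 1 of 13319 genes was called higher in KI and 16 lower, so it cannot tell the 9 from other genes. Of the other genes in KI, 3 were called with each model fitted alone, 0 without those 3 libraries, 15 by limma-voom and 11 by DESeq2. Over all genes in KI, 382 of 12965 were called higher and 377 lower with each model fitted alone. By limma-voom these were 3619 and 3740 of 13338, and by DESeq2 1531 and 1384 of 13762. For the difference 1 of the 9 was called without KI sham 3 and 4, and of the other genes 8 were called with upper quartile factors, 16 by limma-voom and 13 by DESeq2. Over all genes the difference was called positive for 253 and negative for 398 of 13381 without KI sham 3 and 4. With upper quartile factors these were 473 and 46 of 13338, by limma-voom 2237 and 2541 of 13338, and by DESeq2 775 and 338 of 13762. Between the shams 1 other gene was called without KI sham 3 and 4 and 1 by limma-voom. Over all genes 322 of 13381 were called higher in KA sham and 303 lower without KI sham 3 and 4. By limma-voom these were 314 and 97 of 13338. Upper quartile factors moved the median of all genes in KI to -0.10 in log2.

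Among the 9, signs changed only where KI sham 3 was left out, alone or with KI sham 4. Of 104 fold changes of the other 26 genes, 38 took the opposite sign under some alternative (21 with 1 library left out), 0 of them a called one. Without both, the KI change was 0.19 for C1r and 0.22 for C1s, and the sham difference was 0.018 for C1qc, 0.094 for C1r, 0.19 for C1s, 0.063 for C2 and 0.16 for Serping1. Without KI sham 3 alone, C1s was at 0.053 in KI and 0.025 between the shams, within ranges of -0.32 to 0.053 and -0.33 to 0.025 over all libraries left out singly.

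Whether the replicate numbers of the titles pair the samples could not be settled from these few correlations. Deviations of same-numbered libraries correlated at -0.154 to 0.00907 in KA and -0.166 to -0.0679 in KI. Those of libraries with different numbers correlated at -0.240 to 0.322 in KA and -0.0665 to 0.137 in KI. With the replicate block 0 of the 9 and 0 of the other genes were called in KA, in KI and for the difference. Over all 13338 genes that block called 3 in KA, 0 in KI and 11 for the difference. It therefore cannot tell the complement genes from other genes. C5ar1, at 1.66 to 6.63 CPM, is the gene among the 9 most limited by depth.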
